A study of Mus musculus with 6 samples.

Results

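Transforming growth factor beta (TGF-beta) signalling was examined in thymic dendritic cells (DCs) through 8 genes, chosen by symbol: the ligand gene Tgfb1, the receptor genes Tgfbr1 and Tgfbr2, the signal transducer genes Smad2 and Smad3, the inhibitor genes Smad7 and Ski, and the target gene Tgfbi. All 8 were among the 23420 gene symbols counted, and all 8 passed the filter on low counts that left 8141 genes for testing. RNA-seq libraries were made from cells that flow cytometry sorted out of the thymus of wild type mice, with 2 libraries in each of 3 groups. PBS pDCs were plasmacytoid DCs (pDCs; low CD11c, positive for B220) from mice given PBS, labelled as 2 weeks. PBS Sirpa+ DCs were conventional DCs (high CD11c, Sirpa+) from mice with the same label. YG+ pDCs were also labelled as 2 weeks. They carried yellow-green fluorescent microspheres and came from mice inoculated under the skin with MC38, a mouse colon carcinoma line. Microspheres went into the tumours 12 days after inoculation, and cells were sorted 2 days after that. The tumour, the injected material and the gate on microspheres all separate YG+ pDCs from PBS pDCs, so their effects cannot be told apart. Whether replicate libraries stand for different mice is not stated in the labels, so the spread behind each p-value is that of these libraries and may be technical.

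TGF-beta is secreted in a latent form that integrins, proteases and thrombospondin release. The active ligand brings together a type II receptor (Tgfbr2) and a type I receptor (Tgfbr1), which phosphorylates Smad2 and Smad3 so that they enter the nucleus with Smad4. Ski represses transcription by Smad complexes, and Smad7, itself induced by the pathway, blocks the type I receptor. In the thymus TGF-beta sustains the precursors of regulatory T cells, and DCs there delete self-reactive thymocytes or divert them into the regulatory lineage. Both pDCs and Sirpa+ DCs can bring antigen into the thymus from other tissues.

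The promoters of Tgfbi and Tgfbr2 are shown because these were the 2 members that differed between groups in the tests below, in opposite directions. Each runs from 250 bases before to 50 bases after the annotated start (RefSeq, GRCm38.p6), and capitals mark CAGAC or its reverse complement GTCTG, the short element that Smad3 and Smad4 bind.
Tgfbi, chr13:56609336-56609635, plus strand: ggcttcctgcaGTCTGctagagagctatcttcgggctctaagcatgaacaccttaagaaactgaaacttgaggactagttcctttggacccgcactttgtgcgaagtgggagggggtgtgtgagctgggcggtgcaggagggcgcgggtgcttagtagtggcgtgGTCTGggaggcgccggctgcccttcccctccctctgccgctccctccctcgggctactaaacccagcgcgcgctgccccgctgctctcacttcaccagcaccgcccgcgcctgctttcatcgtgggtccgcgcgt
Tgfbr2, chr9:116175314-116175613, minus strand: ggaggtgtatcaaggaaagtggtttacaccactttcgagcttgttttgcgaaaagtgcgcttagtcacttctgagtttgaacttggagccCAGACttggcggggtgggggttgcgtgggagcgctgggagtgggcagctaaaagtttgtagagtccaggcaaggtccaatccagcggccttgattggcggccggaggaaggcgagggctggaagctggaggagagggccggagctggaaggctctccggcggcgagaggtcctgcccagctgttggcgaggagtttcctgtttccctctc
The Tgfbi window held 2 matches, beginning 239 and 85 bases before the start, and the Tgfbr2 window held 1, beginning 160 bases before it. On either strand CAGAC was present in 49.6% of 32851 promoters of this length, so a match is common. Of 6 members whose promoters were searched (7 promoters), 3 had a CAGAC match, where 53.2% of all genes had one. These were Tgfbi, Tgfbr2 and the second of the Tgfbr1 starts. Smad2 and Smad7 were not searched. The palindrome GTCTAGAC, found in 0.248% of all genes, was in 0 of the 6. The GC-rich Smad element GGCGC, found in 39.4% of genes, was in 4 of the 6 (Tgfb1, Tgfbr1, Ski and Tgfbi). Tgfbi had a pair of overlapping matches. These matches describe the letters only and say nothing of binding.

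Gene counts totalled 177844 to 713966 per library, 0.842% to 3.36% of uniquely placed reads, and the lowest library was PBS pDC replicate 1. This library stood apart: the PBS pDC libraries correlated at 0.726 across genes (Pearson, log2 scale), against 0.934 between the YG+ pDC and 0.855 between the Sirpa+ DC libraries. Siglech, a lectin of pDCs, was at 670 to 1059 CPM (counts per 1000000 of normalised library size) in the 4 pDC libraries and at 43.9 and 46.5 CPM in the Sirpa+ DC libraries. Sirpa was at 575 and 748 CPM in Sirpa+ DCs and at 198 to 392 CPM in pDC libraries, without overlap. Itgax (CD11c) was at 436 and 612 against 159 to 266 CPM. Neither passed in PBS pDCs against Sirpa+ DCs (edgeR quasi-likelihood test, adjusted p = 0.0754 and 0.0988). In that comparison 24.2% of all genes were lower without overlap. Sirpa and Itgax belong to a list of 11 Sirpa+ DC markers, 10 of them tested. In PBS pDCs 3 of these passed as lower (6.89% of all genes did) and 1 as higher (4.54%). The higher one was Clec10a, at 102 and 171 CPM in PBS pDCs and 42.3 and 31.9 CPM in Sirpa+ DCs. Irf4 (log2 fold change 0.24) and Flt3 (-0.16) did not pass. Ptprc, the gene of B220, overlapped there, at 185 and 1011 CPM in PBS pDCs and 237 and 512 CPM in Sirpa+ DCs. Counts of Tsix were 2.70 to 20.5 times those of Xist on the other strand, and no source used here gives the strand setting. Counting on the strand opposite to the transcripts was not tested, so each level below is of reads assigned to a gene and may not be of its sense transcript. For the 8 members 0 exonic bases lay under an exon of another gene on either strand (GENCODE M21, GRCm38). A count of 0 would allow up to 4.21 to 19.1 CPM in a library (3 counts), and floors and intervals cover counting error only.

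Tgfb1 (chromosome 7, 25687002 to 25705077) encodes the ligand and was present at a like level in both pDC groups. It was at 255 and 249.9 CPM in the PBS pDC libraries, at 243 and 265 CPM in the YG+ pDC libraries and at 169 and 139.6 CPM in the Sirpa+ DC libraries. All 4 pDC libraries lay above both Sirpa+ DC libraries, and the pDC groups overlapped. The log2 fold change was 0.72 ± 0.40 (SE) for PBS pDCs against Sirpa+ DCs, which did not pass (edgeR quasi-likelihood test, adjusted p = 0.315), and 0.01 ± 0.39 for YG+ pDCs against PBS pDCs, with a 95% interval of -0.84 to 0.86. In a bulk sample, fewer cells that express a gene and less RNA of it per cell cannot be told apart. Of the other ligand genes, Tgfb2 had 0 counts in all 6 libraries and Tgfb3 had 1 to 4 counts per library.

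Tgfbr2 (chromosome 9, 116084293 to 116175360), the ligand-binding type II receptor gene, was higher in pDCs of both kinds. It was at 421 and 407 CPM in PBS pDCs, at 506 and 497 CPM in YG+ pDCs, and at 173 and 189 CPM in Sirpa+ DCs. The groups did not overlap in any comparison, and the Sirpa+ DC libraries were lowest. Against Sirpa+ DCs, Tgfbr2 rose in YG+ pDCs by a log2 fold change of 1.46 ± 0.40 (adjusted p = 0.0496), just inside the threshold of 0.05. In PBS pDCs the log2 fold change of 1.19 ± 0.40 did not pass (adjusted p = 0.0851). The first call was lost without either YG+ pDC library (adjusted p = 0.406 and 0.443) or either Sirpa+ DC library (0.313 and 0.217), and PBS pDCs passed without PBS pDC replicate 1 (0.0489). The log2 fold change stayed between 1.37 and 1.55 for YG+ pDCs and between 1.12 and 1.29 for PBS pDCs over 13 alternatives each. The call for YG+ pDCs was also lost with the replicate number as a block (adjusted p = 0.0526). Summed markers of lymphocytes moved the same way as Tgfbr2 and Tgfb1. The 9 B cell markers summed to 728 to 852 CPM in pDC libraries. In Sirpa+ DC libraries they summed to 80.4 and 37.9 CPM, with Ms4a1, Pax5 and Blk at 0. The 10 T cell and thymocyte markers summed to 555 to 701 CPM against 161 CPM in each Sirpa+ DC library. Most of the sum in pDC libraries was Cd4 and Cd8b1, and not all markers moved this way. Cd3e was at 5.37 CPM in YG+ pDC replicate 2 and at 0 elsewhere, and Cd3d was highest in Sirpa+ DC replicate 1 (25.4 CPM). Cd3g and Ptcra were at 0 throughout. The part of such cells in the receptor and ligand levels was not tested.

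Tgfbr1 (chromosome 4, 47353222 to 47414931), the type I receptor kinase gene, had another order. It was at 108 and 204 CPM in PBS pDCs, at 320.3 and 324 CPM in YG+ pDCs, and at 216 and 421 CPM in Sirpa+ DCs. PBS pDCs were below both other groups without overlap, whereas YG+ pDCs lay between the Sirpa+ DC libraries. The log2 fold change was 1.00 ± 0.48 for YG+ pDCs against PBS pDCs (adjusted p = 0.456) and -1.0 ± 0.48 for PBS pDCs against Sirpa+ DCs (adjusted p = 0.234), so neither passed. PBS pDCs enter both comparisons, with PBS pDC replicate 1 lowest.

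The balance of the receptor transcripts within a library does not depend on scaling between libraries. Per exon length, Tgfbr2 was 3.10 and 1.60 times Tgfbr1 in the PBS pDC libraries and 1.26 and 1.23 times in the YG+ pDC libraries. It was 0.642 and 0.359 times Tgfbr1 in the Sirpa+ DC libraries. Exact binomial 95% intervals lay above 1 in all 4 pDC libraries (lowest bound 1.01) and below 1 in both Sirpa+ DC libraries (highest bound 0.987). The side of 1 rests on the annotated exon lengths, since the isoforms in use were not measured. With the same lengths in every library, the ratio was lower in both Sirpa+ DC libraries than in all 4 pDC libraries.

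**Figure D1:**
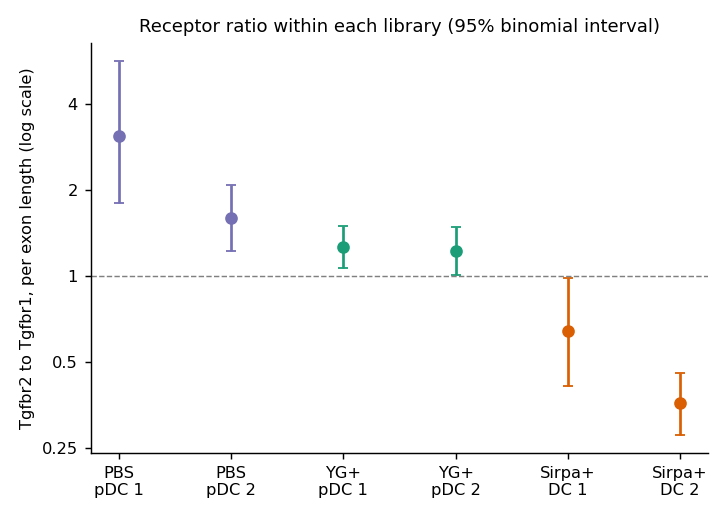
Ratio of Tgfbr2 to Tgfbr1 counts per exon length in each library (log axis), with exact binomial 95% intervals as bars and a dashed line at 1. The 4 pDC libraries lie above 1, from 1.23 to 3.10, and the Sirpa+ DC libraries below it, at 0.642 and 0.359.

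Neither signal transducer gene passed the test in any comparison. Smad2 (chromosome 18, 76241580 to 76310963) was at 19.1 and 76.4 CPM in PBS pDCs, 57.6 and 55.5 CPM in YG+ pDCs, and 21.2 and 43.9 CPM in Sirpa+ DCs. The PBS pDC libraries spanned every other value, with only 3 counts in PBS pDC replicate 1, and the YG+ pDC libraries lay above both Sirpa+ DC libraries. Smad3 (chromosome 9, 63646767 to 63757994) was at 204 and 109 CPM in PBS pDCs, 112 and 122 CPM in YG+ pDCs, and 131 and 47.8 CPM in Sirpa+ DCs. Sirpa+ DCs overlapped both pDC groups for Smad3, and the 3 comparisons had adjusted p of 0.415 to 0.827 (edgeR). For Smad2 the range was 0.520 to 0.975. The 95% intervals of the log2 fold change for YG+ pDCs against PBS pDCs were -1.21 to 1.36 for Smad2 and -1.51 to 0.77 for Smad3, so changes of 2-fold in either direction (Smad2) or a 2-fold fall (Smad3) were within reach of the error.

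Smad7 (chromosome 18, 75367529 to 75395935), the feedback inhibitor gene, was at 82.9 and 104 CPM in PBS pDCs, 119 and 122 CPM in YG+ pDCs, and 80.4 and 119.6 CPM in Sirpa+ DCs. The YG+ pDC libraries were above both PBS pDC libraries, and Sirpa+ DCs overlapped each pDC group. The log2 fold change for YG+ pDCs against PBS pDCs was 0.34 ± 0.42 (adjusted p = 0.801), which did not pass.

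Ski (chromosome 4, 155154075 to 155222592), the Smad co-repressor gene, was lowest in PBS pDCs. It was at 108 and 113 CPM there, at 213 and 227 CPM in YG+ pDCs, and at 190.4 and 235 CPM in Sirpa+ DCs. Replicates were close, and PBS pDCs lay apart from both other groups, which overlapped each other. The log2 fold change was 0.98 ± 0.40 for YG+ pDCs against PBS pDCs (adjusted p = 0.392) and -0.94 ± 0.41 for PBS pDCs against Sirpa+ DCs (adjusted p = 0.184). Neither passed over all genes, although the unadjusted edgeR p was 0.0321 and 0.0409, and PBS pDCs enter both.

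**Figure D2:**
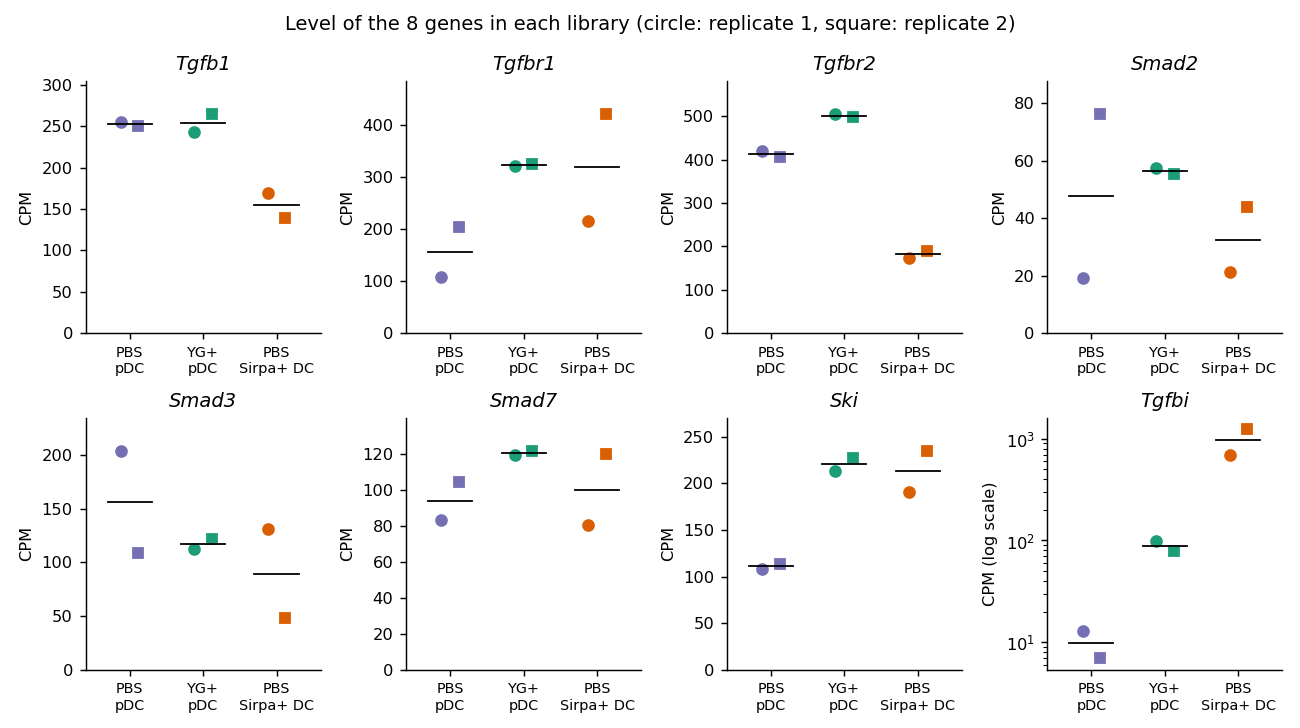
Level of each member (CPM; log axis for Tgfbi only) in the libraries of PBS pDCs, YG+ pDCs and PBS Sirpa+ DCs; circles are replicate 1, squares replicate 2, and lines the mean of 2 libraries. Tgfbi runs from 6.94 to 1244 CPM, Tgfbr2 and Tgfb1 are lowest in Sirpa+ DCs, and Ski is lowest in PBS pDCs.

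Tgfbi (chromosome 13, 56609523 to 56639562) encodes a secreted matrix protein that binds collagens and integrins and takes its name from its induction by TGF-beta. It had the widest range of the members. It was at 12.8 and 6.94 CPM in PBS pDCs (2 and 3 counts), at 98.3 and 78.7 CPM in YG+ pDCs (70 and 44 counts), and at 689.7 and 1244 CPM in Sirpa+ DCs (163 and 624 counts). The groups lay in this order without overlap, with exact Poisson 95% intervals reaching 46.1 CPM at most in PBS pDCs, starting at 57.2 CPM in YG+ pDCs and starting at 588 CPM in Sirpa+ DCs. Against Sirpa+ DCs, Tgfbi fell by 6.75 ± 0.65 on the log2 scale in PBS pDCs (adjusted p = 6.91e-04), ranking 3 of 8141 genes by p. It fell by 3.45 ± 0.48 in YG+ pDCs (adjusted p = 0.00310). In all 13 alternatives both calls held, at adjusted p of 0.0120 or less and 0.0375 or less. Per exon length it was 256 ± 104 CPM per kb (SD, n = 2) in Sirpa+ DCs, above every other member there, and 2.61 ± 1.09 CPM per kb in PBS pDCs.

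YG+ pDCs had more Tgfbi than PBS pDCs in each library, but the difference did not pass. The log2 fold change was 3.30 ± 0.65 (95% interval 1.86 to 4.74, edgeR adjusted p = 0.235, unadjusted p = 3.55e-04), ranking 10 of 8141 genes by p. With so few counts in PBS pDCs, the ratio of group sums was 10.6 with a 95% counting interval of 4.40 to 33.2. The smallest adjusted p of any gene in this comparison was also 0.235. DESeq2 called Tgfbi (adjusted p = 0.0122), as did edgeR without a filter on low counts (0.00417), where 1.36% and 0.84% of genes were called in all and 0.197% and 0.274% higher. In the other 11 alternatives it was not called, with adjusted p up to 0.970.

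As a sum, monocyte and macrophage markers were lowest in PBS pDCs and highest in Sirpa+ DCs, as Tgfbi was, but single markers differed. All 15 listed markers were counted, and their summed level was 613 and 1065 CPM in PBS pDCs, 1057 and 2135 CPM in YG+ pDCs, and 3935 and 6498 CPM in Sirpa+ DCs. PBS pDC replicate 1 overlapped YG+ pDC replicate 2, and its sum included 631 CPM of Ly6c2, which pDCs also express. Without Ly6c2, a choice made after seeing the values, the sums were 434 and 294 CPM in PBS pDCs, 1934 and 809 CPM in YG+ pDCs, and 3923 and 6456 CPM in Sirpa+ DCs, without overlap. Of 12 markers tested, 11 had a positive log2 fold change for YG+ pDCs against PBS pDCs, with a median of 2.51. Fcgr1, Marco, Mertk and Timd4 had 0 counts in both PBS pDC libraries. Not all markers had the order of the sum. Cd68 was at 95.7 and 125 CPM in PBS pDCs, 155 and 106 CPM in YG+ pDCs, and 127 and 154 CPM in Sirpa+ DCs. Ccr2 also overlapped between the groups, and Vcam1 was highest in YG+ pDC replicate 1 (173 CPM). The complement gene C1qa was at 169 and 41.2 CPM in the YG+ pDC libraries, a wider spread than the 98.3 and 78.7 CPM of Tgfbi, and at 12.8 and 4.63 CPM in the PBS pDC libraries. Csf1r, a receptor gene of macrophages that is also listed for Sirpa+ DCs, was at 184 and 100.2 CPM in YG+ pDCs against 25.5 and 11.6 CPM in PBS pDCs. The part of such cells in the level of Tgfbi was not tested. The summed level of 8 thymic epithelium markers also had this order. It was at 6.38 and 23.1 CPM in PBS pDCs, 54.8 and 46.5 CPM in YG+ pDCs, and 135 and 142 CPM in Sirpa+ DCs. Most of the Sirpa+ DC sum was Epcam (118 and 102 CPM), and Aire had another order. Aire was at 0 and 4.63 CPM in PBS pDCs, 23.9 and 19.7 CPM in YG+ pDCs, and 0 and 9.97 CPM in Sirpa+ DCs. Epcam, the 1 of the 8 that was tested, fell in both pDC groups against Sirpa+ DCs, while Foxn1 and Krt14 were at 0 throughout. The 8 fibroblast and endothelium markers had a higher sum in pDC libraries, whose 2 groups overlapped. It was at 250.03 to 366 CPM in the pDC libraries and 127 and 114 CPM in Sirpa+ DCs. Most of that in the pDC libraries was the endothelial genes Cdh5 and Pecam1, which rose in both pDC groups against Sirpa+ DCs, whereas Col1a1 and Pdgfrb had 0 counts in all 6 libraries and Col1a2, Col3a1 and Pdgfra in 5 each. Kdr, another gene of that list, was not higher in pDCs, at 35.1 to 64.8 CPM against 55.0 and 79.7 CPM in Sirpa+ DCs. The part of epithelial, fibroblast and endothelial cells was not tested either.

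**Figure D3:**
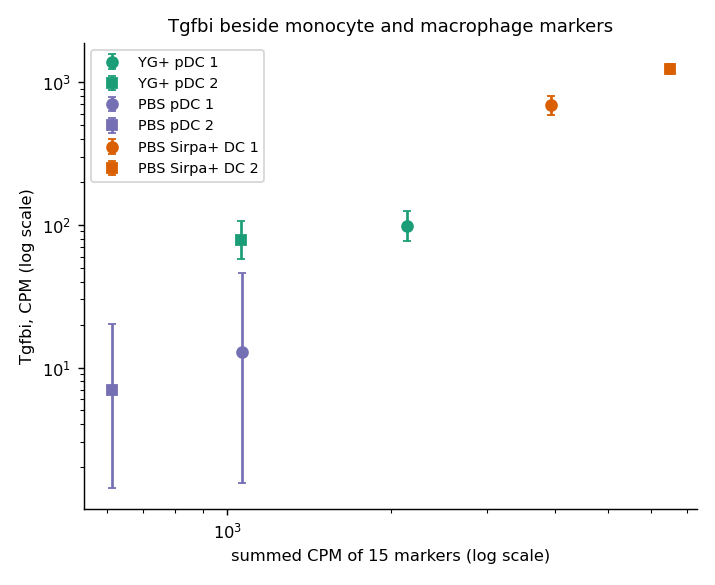
Tgfbi (CPM, with exact Poisson 95% intervals) against the summed CPM of 15 monocyte and macrophage markers in each library, both axes logarithmic. Sirpa+ DC libraries are highest on both axes, and the pDC groups overlap in the marker sum, which includes Ly6c2, but not in Tgfbi.

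Of the 8 members, the test called 1 in PBS pDCs against Sirpa+ DCs (Tgfbi, lower), where 11.4% of all genes were called. It called 2 in YG+ pDCs against Sirpa+ DCs (Tgfbr2 higher and Tgfbi lower), where 7.16% were called. The 2 fell to 1 (Tgfbi) when any YG+ pDC or Sirpa+ DC library was left out, and the 1 became 2 without PBS pDC replicate 1. For YG+ pDCs against PBS pDCs edgeR called 0 members and 0% of all 8141 genes, limma-voom called 0 genes and DESeq2 called 111. At an unadjusted p under 0.05 there were 2 members (Ski and Tgfbi), where 11.4% of all genes passed. The same count was 3 in PBS pDCs against Sirpa+ DCs (24% of all genes) and 2 in YG+ pDCs against Sirpa+ DCs (22.8%). For YG+ pDCs against PBS pDCs the members had a median log2 fold change of 0.31 against 0.08 over all genes tested, and 7 of 8 were above 0. Groups did not overlap, with YG+ pDCs higher, for 5 members (Tgfbr1, Tgfbr2, Smad7, Ski and Tgfbi), where 26.5% of all genes did so, and with YG+ pDCs lower for 0 (19.3%). In PBS pDCs against Sirpa+ DCs 2 members were higher without overlap (22.9% of all genes) and 3 lower (24.2%). For YG+ pDCs against Sirpa+ DCs these were 3 (32.8%) and 1 (29.1%). Median values were 0.27 (0.08 over all genes) for PBS pDCs against Sirpa+ DCs and 0.35 (0.04) for YG+ pDCs against Sirpa+ DCs. These comparisons share libraries, so their values are not independent of each other.

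**Figure D4:**
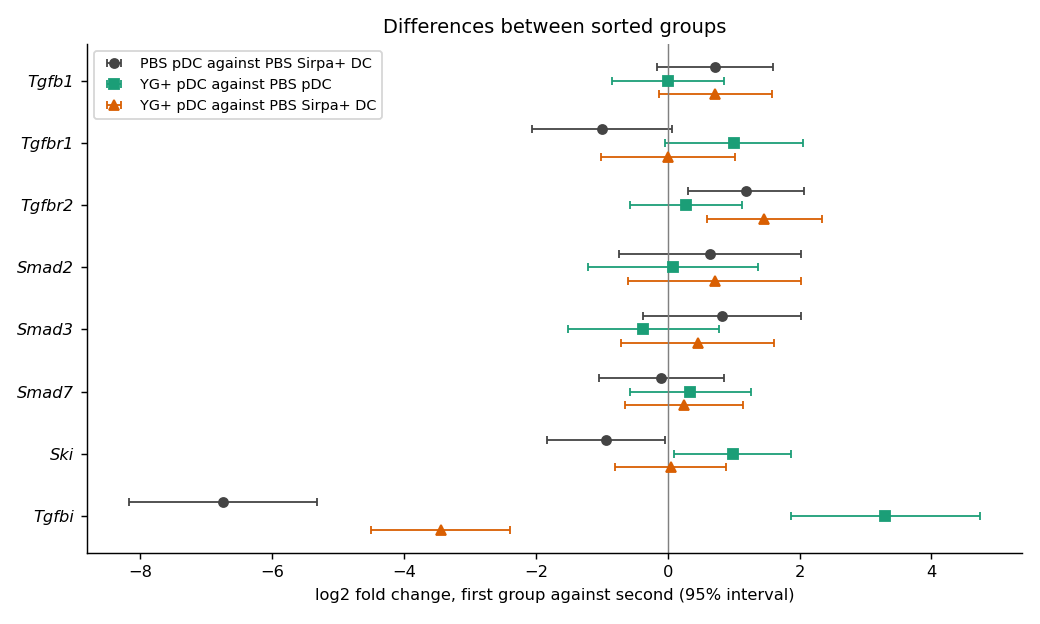
Log2 fold change of each member in the 3 comparisons, first group against second, with 95% intervals from the edgeR fit as bars. Intervals for Tgfbi exclude 0 in all 3 comparisons, at -6.75, 3.30 and -3.45, whereas those for Smad2, Smad3, Smad7 and Tgfb1 include it.

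Other genes of the pathway were read from a list by role, which held 75 genes beside the members, 51 of them tested. In PBS pDCs against Sirpa+ DCs, 11 of the 51 were called, 2 higher (4.54% of all genes were) and 9 lower (6.89%), and the median was -0.42 against 0.08 over all genes. Among ligands and activators of latent TGF-beta, 4 of 11 tested genes fell and 1 rose. Itgb5, an integrin subunit that pairs with alpha V, was at 6.38 and 2.31 CPM in PBS pDCs and 262 and 269 CPM in Sirpa+ DCs. Mmp14, a membrane metalloprotease gene, was at 0 and 11.6 CPM against 157 and 181 CPM. Both were far apart between the groups, at log2 fold changes of -6.15 ± 0.91 (adjusted p = 0.00217) and -4.35 ± 0.67 (adjusted p = 0.00260). Thbs1, which encodes the activator thrombospondin 1, was at 31.9 and 46.3 CPM against 131 and 187 CPM. Lrrc32, whose product GARP docks latent TGF-beta on the cell surface, was at 6.38 and 0 CPM against 46.5 and 55.8 CPM. Nrros (counted as Lrrc33), from the same list, was not called, at 134 and 229 CPM in PBS pDCs against 190 and 237 CPM. Gdf11, a related ligand gene, rose, at 63.8 and 37.0 CPM in PBS pDCs against 4.23 and 1.99 CPM. Itgb8, whose integrin activates TGF-beta on DCs, was too low to test, with 0 to 2 counts per library.

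No other receptor (6 tested) or Smad gene (3 tested) was called in any comparison by edgeR, DESeq2 or limma-voom on all 6 libraries. At an unadjusted edgeR p under 0.05 there were 1 receptor gene in PBS pDCs against Sirpa+ DCs, 2 in YG+ pDCs against PBS pDCs, 0 in YG+ pDCs against Sirpa+ DCs, and 0 Smad genes. The receptor gene Acvrl1 was called in PBS pDCs against Sirpa+ DCs without PBS pDC replicate 1, and Acvr2a in YG+ pDCs against PBS pDCs without PBS pDC replicate 2. Smad4, the shared partner, was at 57.4 and 85.6 CPM in PBS pDCs, 135 and 116 CPM in YG+ pDCs, and 50.8 and 91.7 CPM in Sirpa+ DCs. Among 18 inhibitors and modulators tested, Sik1, a kinase that TGF-beta induces and that promotes loss of the type I receptor, rose in PBS pDCs, at 542 and 692 CPM against 114 and 124 CPM. Smurf1, a ubiquitin ligase gene that acts with Smad7, fell, at 44.6 and 48.6 CPM against 157 and 167 CPM. Among 13 other target genes 4 fell (6.89% of all genes did) and 0 rose (4.54%). Itgae (CD103) was at 12.8 and 9.26 CPM in PBS pDCs against 131 and 148 CPM, the receptor kinase gene Axl at 89.3 and 85.6 CPM against 410.4 and 628 CPM, and the fibronectin gene Fn1 at 6.38 and 2.31 CPM against 88.9 and 126 CPM. Id2, a transcriptional inhibitor that conventional DCs need, was at 51.0 and 30.1 CPM against 152 and 109.7 CPM. Fewer of the 11 calls held without Sirpa+ DC replicate 1 (5) or replicate 2 (3, namely Itgb5, Mmp14 and Itgae). Smurf1 and Id2 were lost without either YG+ pDC library (9 calls each), and Lrrc32 and Id2 without PBS pDC replicate 2. The macrophage marker sums given beside Tgfbi had the same order of groups as Itgb5, Mmp14 and Fn1, and their part in these levels was not tested.

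In YG+ pDCs against Sirpa+ DCs 6 of the 51 genes were called, Sik1 higher (3.07% of all genes were) and Itgb5, Mmp14, Lrrc32, Smurf1 and Itgae lower (4.09%). Itgb5 was at 67.4 and 14.3 CPM, Mmp14 at 30.9 and 23.3 CPM, and Sik1 at 810.5 and 1091 CPM in the YG+ pDC libraries. Of these 6 called genes, only Sik1 had YG+ pDC values above both other groups. The count of calls fell on leaving out any YG+ pDC or Sirpa+ DC library and rose without either PBS pDC library. The count over all genes did the same. Against PBS pDCs, 0 of the 51 genes were called in YG+ pDCs by edgeR, limma-voom or DESeq2, with 12 at an unadjusted p under 0.05 (11.4% of all genes were). The median log2 fold change was 0.41, and 38 of 51 were above 0. Among fits that left out a library, only that without PBS pDC replicate 2 called any of the 51. That fit also called the most genes over all. Pmepa1, which encodes a TGF-beta induced inhibitor that holds Smad2 and Smad3, was at 19.1 and 25.5 CPM in PBS pDCs, 38.1 and 53.8 CPM in Sirpa+ DCs, and 80.1 and 75.2 CPM in YG+ pDCs (log2 fold change 1.73 ± 0.51 against PBS pDCs, adjusted p = 0.315). Thbs1 was at 122 and 161 CPM in YG+ pDCs, without overlap with PBS pDCs and overlapping Sirpa+ DCs (1.78 ± 0.47, adjusted p = 0.315). Ltbp3, which encodes a binding protein of latent TGF-beta, was the reverse, at 5.62 and 1.79 CPM in YG+ pDCs against 121 and 20.8 CPM in PBS pDCs (adjusted p = 0.315).

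Genes linked to tolerance in the thymus were set beside the pathway, 27 in all with 17 tested. In PBS pDCs 1 of these rose and 10 fell against Sirpa+ DCs, 11 of 17 where 11.4% of all genes were called, and the median was -2.02 against 0.08 over all genes. Ccr9, the chemokine receptor that guides pDCs to the thymus, was the one that rose, at 702 and 877 CPM against 71.9 and 59.8 CPM. Its counts are less certain, since 19.0% of its exon length lies under exons of the opposite strand. Ccl22 and Ccl17, whose chemokines attract maturing and regulatory T cells through Ccr4, fell. Ccl22 was at 140.3 and 164 CPM against 1189 and 1035 CPM. Ccl17 was at 0 in both PBS pDC libraries and at 84.6 and 61.8 CPM in Sirpa+ DCs, at least 13.6-fold lower against a floor of 3 counts over the PBS pDC group. Havcr2 (the inhibitory receptor TIM-3) was at 25.5 and 13.9 CPM against 220 and 285 CPM. The costimulator gene Cd80, linked to regulatory T cell formation, was at 6.38 and 11.6 CPM against 76.2 and 93.7 CPM. The other genes that fell were Cd274, Cd40, Icosl, Ccr7, Mertk and Axl, the last also among the target genes. The count was 6 without Sirpa+ DC replicate 1 and 3 without replicate 2.

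In YG+ pDCs against PBS pDCs 0 of these 17 were called by edgeR, limma-voom or DESeq2, with 5 at an unadjusted p under 0.05 (11.4% of all genes were), while 15 were above 0 and the median was 0.86 against 0.08 over all genes. Without YG+ pDC replicate 2 the count was 1. Cd80 was at 64.6 and 37.6 CPM in YG+ pDCs (log2 fold change 2.34 ± 0.64, adjusted p = 0.315), above both PBS pDC libraries and below both Sirpa+ DC libraries, the order that Tgfbi also had. Mertk, the receptor kinase gene for apoptotic cells, was at 71.6 and 8.95 CPM against 0 in PBS pDCs, at least 8.65-fold higher over the group, with most of it in replicate 1. It is also one of the macrophage markers, whose sum was highest in the same YG+ pDC library, and the part of such cells was not tested. Ccl22 had the same order as Cd80, at 451 and 345 CPM. Against Sirpa+ DCs 3 of the 17 were called in YG+ pDCs, Ccr9 higher (3.07% of all genes were) and Havcr2 and Ccl17 lower (4.09%). That count rose without either PBS pDC library and fell without Sirpa+ DC replicate 2, as the count over all genes did. Genes too low to test included Aldh1a2, the retinoic acid enzyme gene that acts with TGF-beta on regulatory T cells, with 0 counts in the 4 pDC libraries and 4 and 3 in Sirpa+ DCs.

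**Figure D5:**
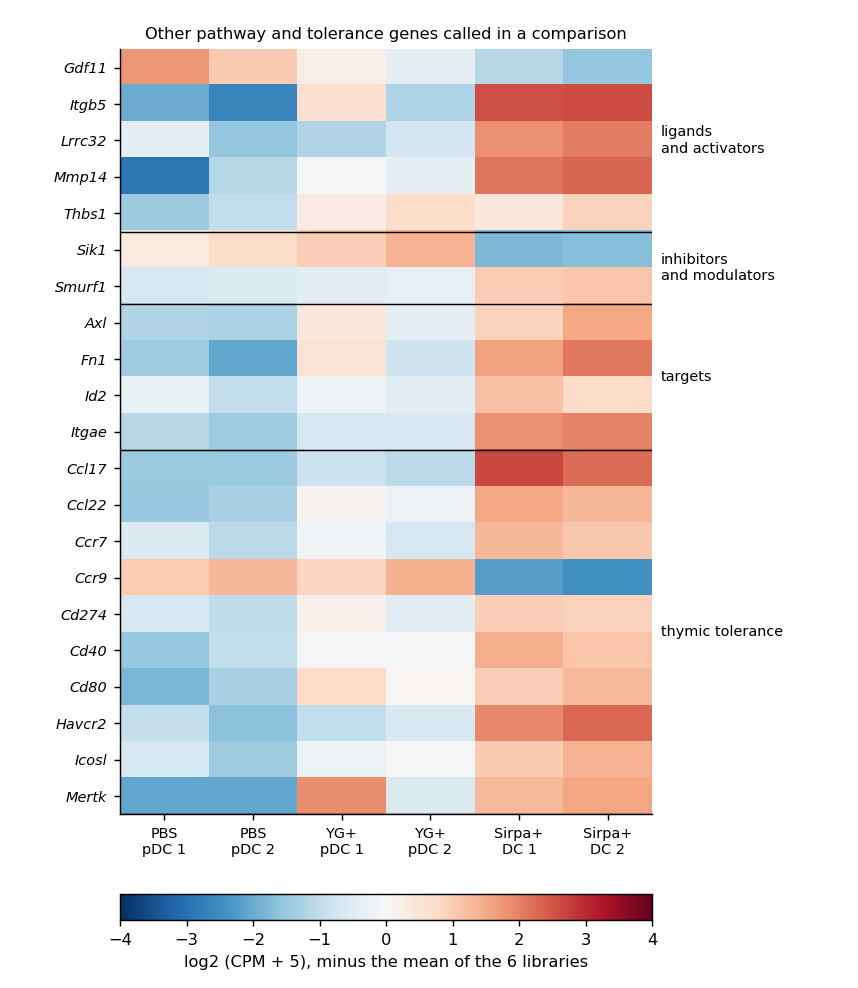
Log2 of CPM plus 5, less each gene's mean over the 6 libraries, for the 21 other pathway and tolerance genes called in at least 1 comparison, by list (Axl is shown with the targets only). Most genes are highest in Sirpa+ DCs, with Gdf11, Sik1 and Ccr9 the exceptions, and the YG+ pDC columns mostly lie between the other groups.

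The genes whose level was most like that of Tgfbi were taken from the 4130 genes whose mean reached 50 CPM, by Pearson's r of log2 CPM over the 6 libraries. Among the closest were Tmem123, Gna12, Etv6, Fosl2 and Got1, at r of 0.994 to 0.995 with the 3 groups setting most of the spread. Tmem123 was at 223 and 183 CPM in PBS pDCs, 466 and 404 CPM in YG+ pDCs, and 914 and 971 CPM in Sirpa+ DCs. Fosl2, an AP-1 transcription factor gene, was at 89.3 and 64.8 CPM, 211 and 165 CPM, and 478 and 510.4 CPM. Both had the same order of groups as Tgfbi, which follows from how they were picked, with a narrower range. Gna12 has 13.3% of its exon length under exons of the opposite strand, so its counts are less certain.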

How the data were processed

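Per the labels' protocols, TRIzol was used for RNA and the Ovation SoLo kit for libraries. The submitters' processing notes name bcl2fastq 2.17 and mm10. No source used here names the aligner, counting program or annotation. The authors deposited whole-number read counts per gene symbol for each library, not normalised. The 5 summary lines of each file name no gene, held 97.7% to 99.5% of records and were left out. Counts were filtered with filterByExpr (8141 genes kept), scaled with TMM (trimmed mean of M-values) and tested with edgeR 4.0.16 (quasi-likelihood) in R 4.3.3, in 1 fit of all 6 libraries without a block. The 3 residual degrees of freedom come from 2 libraries per group. P-values were adjusted by Benjamini-Hochberg over all genes tested, with a threshold of 0.05. SE is the log2 fold change over the root of F. Levels per length use GENCODE M21 exon unions, and 93.0% of symbols matched. limma 3.58.1 and DESeq2 1.42.0 served as alternatives. The test was tried on simulated counts.

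The members, gene lists and tests were chosen with earlier results of these data known. Named genes were the members, called genes of each list with at least 20 CPM (at most 4 per list and comparison, else the 2 smallest p), the 6 genes most like Tgfbi and 5 gate genes. Not all are printed. Alternatives for the tolerance list and for single genes other than members were added after seeing the data. Replicate libraries differed by more than counting noise (chi-square per degree of freedom of 2.52 to 9.20), so none was counted as a duplicate.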

Additional observations from a re-analysis of the deposited data

How the results depend on the processing

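Over the 13 alternatives both Tgfbi calls against Sirpa+ DCs held, as did those of Itgb5, Mmp14 and Itgae in PBS pDCs against Sirpa+ DCs, while counts of calls moved with single libraries (a lone library was taken to vary like the other groups). Genes called numbered 931 in PBS pDCs against Sirpa+ DCs, 580 with only the 4 libraries compared and 214 to 1297 on leaving out each library. For YG+ pDCs against PBS pDCs the 0 became 141 with no filter on low counts, 111 with DESeq2 and 0 to 870 on leaving out a library (870 without PBS pDC replicate 2). For YG+ pDCs against Sirpa+ DCs the 583 became 894 with no filter, 1480 with 4 libraries and 69 to 1487 on leaving out a library. Members called were 1 to 2 on leaving out a library in both comparisons with Sirpa+ DCs. With no filter and with DESeq2, 1 member (Tgfbi) was called in YG+ pDCs against PBS pDCs. Only 1 member was called in YG+ pDCs against Sirpa+ DCs with RLE size factors (Tgfbr2 adjusted p = 0.0603), with no filter (0.0569) and with the replicate block (0.0526). Other pathway genes called ranged over 3 to 13, 0 to 4 and 0 to 13 in the 3 comparisons on leaving out a library, with 2 in YG+ pDCs against PBS pDCs with no filter and 12 in YG+ pDCs against Sirpa+ DCs with 4 libraries. Tolerance genes called ranged over 3 to 11, 0 to 1 and 1 to 11, with 1 in YG+ pDCs against PBS pDCs with no filter. They were 5 in YG+ pDCs against Sirpa+ DCs with RLE, with no filter and with DESeq2, 6 with limma-voom and 10 with 4 libraries. The cause of these shifts was not tested, except that fewer libraries or genes enter some fits.

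Directions that turned were all of uncalled differences. Tgfb1 in YG+ pDCs against PBS pDCs was at a log2 fold change of -0.0692 with RLE, -0.0691 with DESeq2, -0.0677 with 4 libraries, and -0.0308 to 0.0866 on leaving out a library. Tgfbr1 in YG+ pDCs against Sirpa+ DCs was at -0.0820, -0.0806 and -0.0266 in the same fits and at -0.42 to 0.58 on leaving out a library, and Ski was at -0.0401 (RLE), -0.0400 (DESeq2) and -0.13 to 0.21. On leaving out a library, Smad2 ran from -0.91 to 1.36 and Smad7 from -0.36 to 0.27 in PBS pDCs against Sirpa+ DCs, Smad2 from -0.44 to 1.59 and Smad3 from -0.76 to 0.0945 in YG+ pDCs against PBS pDCs, and Smad3 from -0.17 to 1.25 and Smad7 from -0.0205 to 0.58 in YG+ pDCs against Sirpa+ DCs. Smad5 ran from -1.62 to 1.17 in PBS pDCs against Sirpa+ DCs and Smad1 from -0.84 to 0.13 in YG+ pDCs against PBS pDCs. Over all single genes and alternatives, 761 values kept direction and side of the threshold, 56 lost the call, 10 gained it and 27 turned.

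Deviations of same-numbered libraries correlated at -0.121 (YG+ pDCs with PBS pDCs), -0.0990 (YG+ pDCs with Sirpa+ DCs) and 0.298 (PBS pDCs with Sirpa+ DCs). Not all were above 0.1, and the numbers were not taken as pairs. YG+ pDCs came from other mice, so only the last value bears on a pairing of the PBS groups. Whether PBS pDCs and Sirpa+ DCs of one number were sorted together is not known. The replicate block gave 942, 0 and 635 genes called. Depth limits Tgfbi in PBS pDCs (2 and 3 counts) and Smad2 in PBS pDC replicate 1 (3 counts).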

Other observations

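The ratio of Smad3 to Smad2 per exon length differed widely between the libraries of a group except in YG+ pDCs. It was 16.9 and 2.26 in PBS pDCs, 3.09 and 3.48 in YG+ pDCs, and 9.82 and 1.73 in Sirpa+ DCs. The high values were in the libraries with the fewest gene counts of their groups, where Smad2 had 3 and 5 counts, and their exact binomial 95% intervals started at 5.29 and 3.79.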
